A study of Astyanax mexicanus with 8 samples.

Results

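Libraries from 4 seeding densities of one fish cell line, SFL, were compared as spheroids, the compact balls that cells form when they cannot attach to a surface. SFL is a liver-derived line from the surface form of the Mexican tetra Astyanax mexicanus. The libraries were chosen by their titles: the 2 seeded with 10000 or 25000 cells per well are called small, and the 2 seeded with 50000 or 100000 cells are called large. These are 4 of the 8 libraries of the study. The other 4, titled Pachon, come from CFL, a line from the cave form, seeded at the same densities.

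All cells are labelled wild type, grew freely for 28 days at 27 °C in 100 µL of complete medium in round-bottomed plates of 96 wells with an ultra-low-attachment surface, with no other treatment labelled. Each density was sequenced once as polyadenylated RNA, so the 2 libraries of a side differ in density and are not replicates of a condition. SFL is a single line, and nothing in the labels says how many spheroids or cultures went into a library. Small and large refer to the number of cells seeded; the size of the spheroids was not measured here.

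In a spheroid, oxygen and nutrients reach the inner cells by diffusion, so a larger aggregate can hold a core that is poorer in both. Cells in such cultures also lay down matrix, hold on to each other through cadherins and integrins, and often divide less than cells on plastic. Liver cells grown this way are used to keep secreted proteins and lipid metabolism closer to those of the organ.

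Markers of the labelled origin were few in a short fixed set of 15 hepatocyte names. Of 11 hepatocyte markers found by name, 5 averaged at least 1 TPM, a length-corrected share of all transcripts, in SFL, led by rbp4, the plasma carrier of retinol, at 263, 304, 226 and 258 TPM with rising density and fgb, a fibrinogen chain, at 39.4, 34.3, 41.7 and 43.8 TPM. ttr, ambp and fabp10a, 3 proteins typical of hepatocytes, were listed at 0 in every SFL library, and hnf4a, a transcription factor that defines the hepatocyte, in 3 of the 4. Of the biliary markers krt8, a simple-epithelial keratin, was high at 4781, 4518, 6157 and 4707 TPM, while epcam and sox9b were at 0.05 TPM or less. Over the fixed markers found by name, hepatocyte markers summed to 316 and 352 TPM in the small and 277.5 and 319 TPM in the large libraries, mostly from rbp4, and biliary markers to 4957, 4715, 6375 and 4901 TPM. The longer list of secreted hepatocyte proteins summed to 6339, 5673, 7846 and 9081 TPM, mostly from apoeb, higher in both large libraries on both scales. That of hepatocyte factors and enzymes summed to 1456, 1556, 1166 and 1352 TPM, lower in both large libraries as deposited but higher in both after scaling. Of 8 fibroblast or stellate markers 3 averaged at least 1 TPM, namely col1a1a, col1a2 and dcn, and the list summed to 269, 192, 231 and 193 TPM, while hand2 was listed at 0 and pdgfra was at or under 0.25 TPM. Endothelial markers summed to 89.8, 85, 45.1 and 57.8 TPM, nearly all of it from kdrl, a receptor for vascular growth factor, with cdh5, pecam1, tie1 and vwf at or under 0.11 TPM. Leukocyte markers summed to 101, 63.4, 52.7 and 59.4 TPM, nearly all from MPEG1, a pore-forming protein, with spi1b and PTPRC at or under 0.44 TPM. After scaling the hepatocyte sum was 265, 307, 329 and 340, higher in both large libraries, whereas the sides overlapped as deposited. The scaled endothelial sum was 75.4, 74.1, 53.5 and 61.6, lower in both large libraries on both scales. The leukocyte sum was lower in both only as deposited, and after scaling it was 84.6, 55.2, 62.5 and 63.4, with the sides overlapping. The biliary sum after scaling was 4163, 4109, 7564 and 5223, higher in both large libraries, whereas the sides overlapped as deposited. Nearly all of it came from krt8, which did not pass on either scale. The part of these cell types in the results was not tested. Other liver genes were well measured, such as fbp1a at 731, 832, 607 and 735 TPM and cebpa at 133, 141, 114 and 103 TPM. The longer lists of secreted proteins and of factors and enzymes each matched 47 genes, of which 21 and 22 were tested. Of those tested, 20 and 17 averaged at least 1 TPM in SFL. Since several defining hepatocyte genes were at or near 0, the cells are called SFL here rather than hepatocytes.

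The values are TPM, in which every library is rescaled to the same total, so a larger share for some genes leaves less for the others. Some shares differed between the sides here, but how far this moved the other values was not tested. The cytosolic ribosomal protein genes held 17.5% and 17.6% of all TPM in the small libraries and 22.5% and 20.8% in the large ones at 50000 and 100000 cells. The 10 most abundant genes held 11.0% and 11.7%, then 14.9% and 14.5%. The number of genes above 0 was 18374 and 18507 in the small and 17935 and 18089 in the large libraries. Median-of-ratios scaling divides each library by the median ratio of its genes to their geometric mean over the 8 libraries, and its factors were 1.19 and 1.15 for the small and 0.843 and 0.938 for the large libraries. Both scales were therefore tested, each as a log2 difference of (TPM + 1), large minus small; TPM values are as deposited unless scaled is written. Sequencing depth is unknown, and whether depth or RNA quality moved with seeding was not tested.

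Differences between the sides exceeded those within them. After scaling, the root mean square log2 difference over the 13783 tested genes was 0.305 between 10000 and 25000 cells and 0.363 between 50000 and 100000, and it ranged from 0.447 to 0.582 over the 4 pairs of a small and a large library. The share of genes differing at least 2-fold was 1.12% and 1.59% within the sides and 3.01% to 8.41% across them. The widest pair was 10000 against 50000 cells. Both large libraries lay above both small ones in 1282 genes (9.3%) and below them in 8108 (58.8%) as deposited, and in 4840 (35.1%) and 4121 (29.9%) after scaling. With 2 libraries a side, an exact permutation test of any single value could not reach a two-sided p below 0.333.

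As deposited, 159 genes were higher and 3557 lower in large SFL spheroids, 1.15% and 25.8% of the genes tested and 27.0% together (limma, Benjamini-Hochberg adjusted p under 0.05). After scaling there were 1295 higher and 1319 lower, 9.4% and 9.57%, or 19.0% together. The scaling moved the median gene from -0.29 to 0.02 on the log2 scale. All 159 rises as deposited were also rises after scaling, all 1319 falls after scaling were also falls as deposited, and no gene was called in opposite directions. In what follows, a gene rose or fell if it passed the threshold on both scales, which holds for 159 rises (1.15% of genes tested) and 1319 falls (9.57%); a gene that passed after scaling alone is named as such. Among scaled calls of at least 2-fold, 73 were higher and 328 lower. The tested genes averaged at least 1 TPM over both lines, and 1019 of the 13783 did not reach it in SFL itself, so counts and medians of gene lists include some genes hardly detected in SFL. Without these 1019 genes, 158 rises (1.24%) and 1314 falls (10.3%) were left among 12764.

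**Figure D1:**
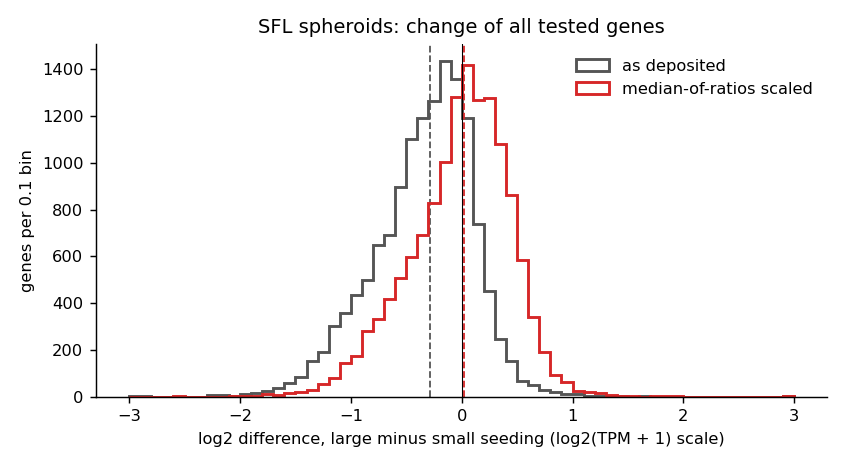
Number of genes (vertical axis, per bin of 0.1) by log2 difference between large and small SFL spheroids (horizontal axis, log2(TPM + 1) scale) for the 13783 tested genes; dashed lines mark the medians. The grey line, as deposited, is centred at -0.29 and the red line, after median-of-ratios scaling, at 0.02. On both, more genes lie in the tail of falls than in that of rises.

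These calls use a spread shared with the CFL libraries, and nearly all are lost without 1 of 3 SFL libraries. With the 4 SFL libraries fitted alone, limma called 0 genes (smallest adjusted p 0.0589, and 5234 genes at an unadjusted p under 0.05). Without SFL at 10000, 25000 or 50000 cells 0 to 3 genes were higher and 0 to 4 lower, and without SFL at 100000 cells 102 were higher and 3095 lower, all as deposited. Without CFL at 10000 or 25000 cells 64 were higher and 2091 or 2093 lower.

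Most called genes lay further from the small libraries at 50000 than at 100000 cells. Of the 1319 genes lower after scaling, 79.5% were lower at 50000 than at 100000 cells, and of the 1295 higher ones 75% were higher at 50000. Measured from the small mean, the median change of the lower genes was -0.90 at 50000 and -0.68 at 100000 cells, and that of the higher genes 0.63 and 0.51. The calls used these same values, and no such share is given for all tested genes. Over all tested genes, the scaled root mean square log2 difference between 50000 cells and the small libraries was 0.582 and 0.546, with rising small density. For 100000 cells it was 0.486 and 0.447. The larger distance at 50000 cells is therefore not shown to be particular to called genes.

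The 12 largest rises included a phosphatase, a kinase, a glucose transporter, a small heat shock protein and a chemokine. Like the falls below, they were chosen among called genes whose sides did not overlap on either scale. alpi.1, an alkaline phosphatase of the intestinal type, stood at 0.55, 3.13, 7.35 and 5.37 TPM at 10000, 25000, 50000 and 100000 cells, a log2 difference of 1.53 as deposited and 1.79 after scaling (SE 0.39, limma adjusted p = 0.0279). Both large libraries were above both small ones, but the value at 10000 cells was far below that at 25000. ptk6a, a non-receptor tyrosine kinase, was at 8.77, 9.75, 20.4 and 19.8 TPM, a log2 difference of 1.04 as deposited and 1.41 after scaling (SE 0.15, limma adjusted p = 0.022). Here each side was tight, and the large libraries were well above the small ones. slc2a1a, the glucose transporter Glut1, was higher at each larger density, at 66.4, 137, 164 and 227 TPM, a log2 difference of 1.01 as deposited and 1.40 after scaling (SE 0.30, limma adjusted p = 0.0272). hspb1, a small heat shock protein that binds unfolded proteins and actin, was at 32.96, 47.4, 73.9 and 72.5 TPM, a log2 difference of 0.87 as deposited and 1.26 after scaling (SE 0.22, limma adjusted p = 0.0221), with the 2 large libraries level.

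ccl20b, a chemokine that draws leukocytes, was at 7.46, 11.9, 17.6 and 20.8 TPM, a log2 difference of 0.95 as deposited and 1.31 after scaling (SE 0.20, limma adjusted p = 0.022). jam3b, a junctional adhesion molecule, was at 8.57, 7.0, 17.7 and 12.7 TPM and highest at 50000 cells, with scaled log2 difference 1.23. tnnt1, a troponin of slow muscle, was at 3.79, 4.35, 10.5 and 7.49 TPM, again highest at 50000, with scaled log2 difference 1.299. The remaining rises among the 12 were ppdpfa, cdaa (cytidine deaminase), anxa1a (an annexin), ip6k1 (an inositol phosphate kinase) and tia1l (an RNA-binding protein), with scaled log2 differences of 1.52, 1.45, 1.21, 1.19 and 1.18. The anxa1a gene that rose (ENSAMXG00000038414) was the minor of 2 measured genes of that name, at 19.9, 23.2, 50.01 and 30.3 TPM. The major one was at 1596, 1778, 2379 and 1814 TPM and passed after scaling alone, with a log2 difference of 0.70 (limma adjusted p = 0.0377), and reads may have been divided between them.

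After scaling, the log2 differences of the 12 largest falls ran from -1.83 to -1.60 and those of the 12 rises from 1.18 to 1.79. They were chosen from unequal pools, 899 falls and 104 rises, so their sizes are not compared. Over all tested genes, called or not, the scaled differences ran from -2.73 to 3.64. col6a3, a chain of the microfibril-forming collagen VI, stood at 17.5, 23.2, 2.28 and 5.71 TPM, a log2 difference of -2.17 as deposited and -1.83 after scaling (SE 0.33, limma adjusted p = 0.0228). Both large libraries were far below both small ones, and 50000 cells was lowest. stard5, a carrier of sterols between membranes, was at 32.9, 28.8, 4.86 and 7.53 TPM, a log2 difference of -2.17 as deposited and -1.81 after scaling (SE 0.19, limma adjusted p = 0.022). bcam, a cell surface receptor for laminin, was at 99.8, 69.05, 12.9 and 24.7 TPM, a log2 difference of -2.15 as deposited and -1.77 after scaling (SE 0.31, limma adjusted p = 0.0221). slc7a11, the antiporter that imports cystine for glutathione, was at 53.4, 39.1, 8.43 and 13.4 TPM, a log2 difference of -2.005 as deposited and -1.63 after scaling (SE 0.25, limma adjusted p = 0.022). In each of these 3 genes the small libraries lay well above the large, and lack of overlap was a condition of the choice.

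slc23a2, a vitamin C transporter, was at 56.02, 37.8, 4.99 and 16.97 TPM, and slc38a3a, a glutamine transporter, at 39.4, 29.9, 5.52 and 9.72 TPM. Both fell, with differences of -1.81 and -1.71 on the scaled log2 scale, and were lowest at 50000 cells. pmepa1, a membrane protein that dampens TGF-beta signalling, was at 17.5, 14.5, 2.66 and 4.33 TPM, a log2 difference of -1.94 as deposited and -1.60 after scaling (SE 0.22, limma adjusted p = 0.022). nfixb, a transcription factor of the nuclear factor I family, was at 15.2, 12.99, 2.14 and 3.23 TPM, a log2 difference of -2.05 as deposited and -1.72 after scaling (SE 0.23, limma adjusted p = 0.022). The other falls among the 12 were rras (a small GTPase), fam102ab, prrg1 (a membrane protein) and vcana (versican), with scaled log2 differences of -1.76, -1.75, -1.65 and -1.62.

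**Figure D2:**
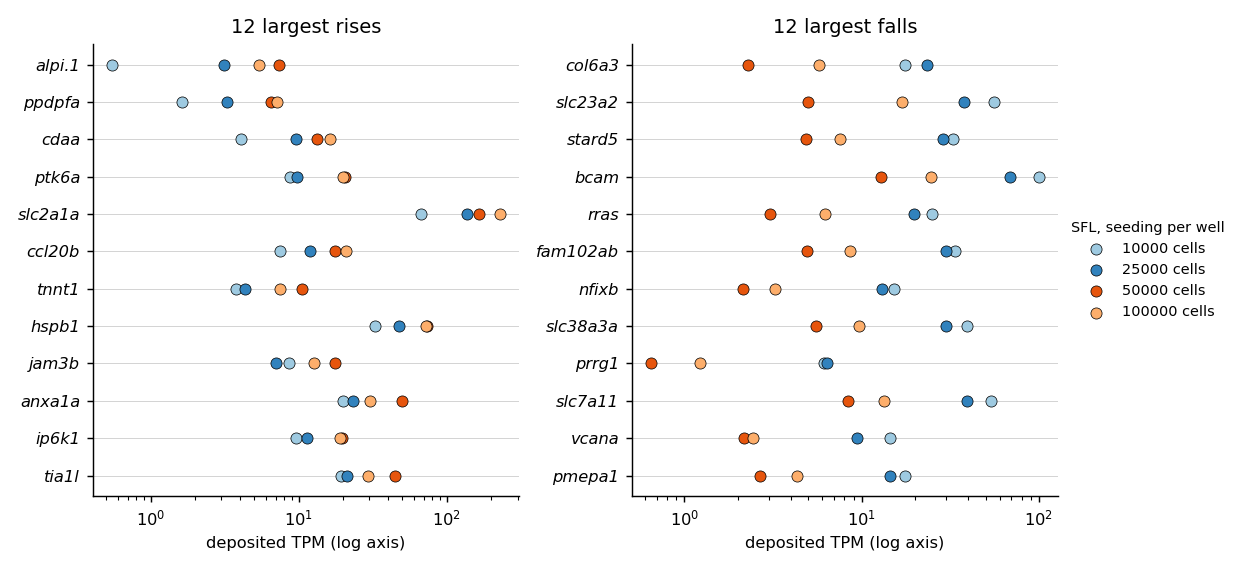
Deposited TPM (horizontal, log axis) in each of the 4 SFL libraries for the 12 largest rises (left) and the 12 largest falls (right), 1 point per library, blue for small and orange for large seeding. Genes were chosen only if both orange points lay on the same side of both blue points. The library at 50000 cells is the lowest for all 12 falls.

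Among the most abundant genes, fth1b, the iron store ferritin, stood at 15819, 17537, 22932 and 22616 TPM and ybx1, an RNA-binding protein, at 11826, 12500.0, 20009.6 and 16707 TPM; both rose. cst3, the secreted protease inhibitor cystatin C, was at 7978, 9095, 14006 and 12135 TPM, a log2 difference of 0.61 as deposited and 1.01 after scaling (SE 0.17, limma adjusted p = 0.0221). fabp11a, a fatty acid binding protein and the most abundant SFL gene, was at 23532, 25655, 31232 and 31683 TPM and passed after scaling alone (limma adjusted p = 0.0382, against 0.231 as deposited). tmsb4x, which binds actin monomers, was at 13398, 11894, 12716 and 13585 TPM. Its libraries overlapped as deposited, but after scaling both large ones lay above both small ones.

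Genes of protein production and energy supply held many of the rises. Of 82 tested cytosolic ribosomal protein genes 21 rose and 0 fell, where 1.15% and 9.57% of all genes did (median log2 difference 0.28 as deposited and 0.67 after scaling), and 60 passed as higher after scaling, where 9.4% of all genes did. In 80 of them both large libraries lay above both small ones after scaling, as in 35.1% of all genes. rpl39, a protein of the large ribosomal subunit, was at 6674, 7561, 9677 and 10502 TPM, and rplp2, of the ribosomal stalk, at 208, 214, 351 and 288 TPM; both rose. One of 3 genes named rpl37 had the largest scaled difference of the list, 0.999, at 1017, 890.1, 1299 and 1611 TPM, but passed after scaling alone.

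Subunits of the respiratory chain and ATP synthase encoded in the nucleus followed. Of 92 tested, 11 rose and 0 fell on both scales, and 55 were higher after scaling (median log2 difference 0.12 as deposited and 0.51 after scaling). NDUFB1 (ndufb1) and ndufa2, both of complex I, were at 118, 121, 171 and 177 TPM and at 73.4, 74.5, 102 and 101 TPM, and cox4i1l, of cytochrome oxidase, at 22.2, 30.03, 38.4 and 34.5 TPM, which passed after scaling alone. Of 46 proteasome subunits 1 rose (2.17%) and 0 fell, with 28 (60.9%) higher after scaling (median 0.47). The one that rose was psma6b, a ring subunit, at 204, 221, 257 and 258 TPM. Mitochondrial ribosomal proteins gave 2 rises (2.67%), mrpl51 and mrpl53, and 16 (21.3%) higher after scaling of 75 (median 0.33). Translation factors and aminoacyl-tRNA synthetases were mixed: of 91, 1 rose (1.1%) and 4 fell (4.4%). The rise was eif5a at 591, 635, 753 and 765 TPM and the deepest fall eif5b at 87.7, 88.8, 34.99 and 49.1 TPM. Of 65 splicing genes 0 rose and 1 fell (1.54%), and 5 (7.69%) were higher after scaling (median 0.17). srsf7b, an SR splicing factor, was at 16.8, 15.9, 24.1 and 19.8 TPM and passed after scaling alone. Mitochondrially encoded genes were not analysed here.

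Across these groups the direction of the median depended on the scale for mitochondrial ribosomal proteins (-0.06 as deposited), translation factors (-0.14) and splicing genes (-0.20), but not for cytosolic ribosomal proteins (0.28), respiratory chain subunits (0.12) or proteasome subunits (0.08).

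**Figure D3:**
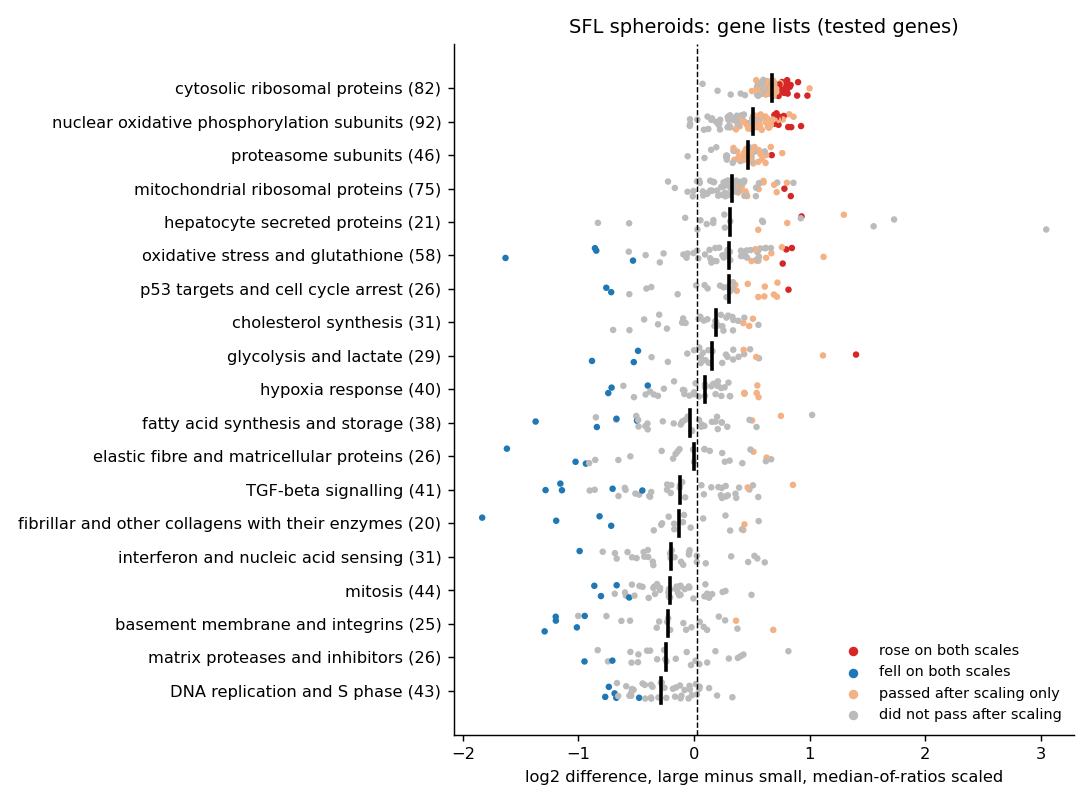
Scaled log2 difference between large and small SFL spheroids (horizontal axis) for each tested member of 19 gene lists, 1 point per gene, with the number tested in brackets; bars are list medians and the dashed line is the median of all genes at 0.02. Cytosolic ribosomal proteins lie furthest right (median 0.67) and DNA replication furthest left (median -0.29).

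Cell cycle lists had medians below that of all genes, but their shares of falls were near that of all genes. On both scales 11.6% of DNA replication and 9.09% of mitosis genes fell, against 9.57% of all genes. Of 43 DNA replication and S phase genes 0 rose and 5 fell, 27 were lower as deposited, where 25.8% of all genes were, and the median difference was -0.63 as deposited and -0.29 after scaling, against -0.29 and 0.02 for all genes. dnmt1, which copies DNA methylation after replication, was at 20.1, 22.9, 9.49 and 8.91 TPM, a log2 difference of -1.14 as deposited and -0.77 after scaling (SE 0.17, limma adjusted p = 0.0276). uhrf1, its partner on newly made DNA, was at 11.5, 14.2, 5.8 and 5.19 TPM. mcm3, of the replicative helicase, was at 23.4, 30.9, 12.97 and 11.8 TPM, and rrm1, of ribonucleotide reductase, at 48.1, 58.2, 23.5 and 26.5 TPM. All 4 fell, and as in every gene that fell, the sides did not overlap after scaling. mcm2, of the same helicase, was the other fall.

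Of 44 mitosis genes 0 rose and 4 fell (median -0.53 as deposited and -0.21 after scaling). kif20a, a kinesin of cell division, was at 10.8, 12.15, 4.36 and 4.43 TPM, a log2 difference of -1.21 as deposited and -0.86 after scaling (SE 0.13, limma adjusted p = 0.022). bub1bb, of the spindle checkpoint, was at 2.55, 4.35, 1.07 and 1.1 TPM, and ttk, a checkpoint kinase, at 7.56, 9.56, 3.74 and 3.74 TPM; both fell. top2a, the topoisomerase that untangles chromosomes, was at 8.1, 11.2, 4.86 and 3.56 TPM and passed as deposited alone (limma adjusted p = 0.0626 after scaling).

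The p53 and arrest list gave 1 rise (3.85%) and 2 falls (7.69%) of 26, against 1.15% and 9.57% of all genes. After scaling 10 (38.5%) were higher, against 9.4% of all genes (median 0.30, but -0.04 as deposited). gadd45ga, a growth arrest protein, rose, at 12.5, 11.6, 18.1 and 15.6 TPM. rb1, which holds cells before S phase, fell, at 4.02, 3.82, 1.57 and 1.23 TPM, as did baxa, a pore former of apoptosis, at 10.3, 7.41, 3.05 and 4.46 TPM. gadd45ba at 70.8, 76.1, 99.2 and 86.4 TPM and ccng1, a p53 target, at 1482, 1406, 1628 and 1729 TPM passed after scaling alone, as did tp53inp1, also a p53 target, at 63.9, 65.95, 75.7 and 85.1 TPM. Of 33 cell death genes 0 rose and 1 fell (3.03%), the fall being baxa. After scaling 5 (15.2%) were higher, among them mcl1b, a survival protein, and casp3b, an executioner caspase. One of 3 genes named CASP6 (casp6), an executioner caspase, was the largest of these at 81.8, 69.9, 89.02 and 103 TPM.

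Falls were 20.0% of the collagen list, 20.0% of the basement membrane and integrin list and 11.5% of the elastic fibre list, against 9.57% of all genes. In the list of matrix proteases and inhibitors the share was lower than in all genes, at 7.69%. Of 20 collagen genes and collagen enzymes 0 rose and 4 fell (median -0.13 after scaling). The falls were col6a3, col12a1a and col12a1b, chains of a collagen that sits on fibrils, and col18a1a, the source of endostatin. col12a1a was at 33.9, 29.6, 9.66 and 10.4 TPM, a log2 difference of -1.56 as deposited and -1.19 after scaling (SE 0.21, limma adjusted p = 0.0226). The fibrillar chain col1a2 was at 181, 142, 177 and 150.1 TPM, with overlapping libraries as deposited. After scaling it was 152, 124, 210 and 160, higher in both large libraries, but it did not pass on either scale. Of the enzymes, p4ha1b, which hydroxylates collagen, was at 48.5, 43.7, 48.8 and 46.6 TPM, level as deposited, and passed as higher after scaling alone. So did p4hb, the most abundant gene of the list, at 802, 807, 836 and 809 TPM.

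Of 25 basement membrane and integrin genes 0 rose and 5 fell (median -0.55 as deposited and -0.22 after scaling). Among the 21 that averaged at least 1 TPM in SFL the scaled median was -0.30. The paired collagen IV chains col4a1 and col4a2 were at 12.97, 8.66, 3.92 and 3.61 TPM and at 8.29, 7.45, 2.58 and 1.36 TPM. agrn, a large heparan sulphate proteoglycan, was at 21.4, 15.96, 4.8 and 6.62 TPM, a log2 difference of -1.55 as deposited and -1.20 after scaling (SE 0.20, limma adjusted p = 0.022). The integrin chains itga4 and itgav, which bind fibronectin, were at 36.1, 33.5, 8.41 and 14.5 TPM and at 18.1, 22.6, 5.44 and 9.4 TPM. Both small libraries lay above both large ones in all 5, as they did after scaling in all 1319 genes that fell. Another 2 of the 25 genes, both integrin chains, passed as higher after scaling alone. itgb1b, the most abundant tested gene of the list in SFL, was at 138, 116, 158 and 152 TPM, with a scaled log2 difference of 0.68 (limma adjusted p = 0.0306). The other was itga3a, with a scaled log2 difference of 0.36 (limma adjusted p = 0.0401).

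Of 26 elastic fibre and matricellular genes 0 rose and 3 fell (median log2 difference -0.28 as deposited and -0.00 after scaling). The falls were a gene named vcana (ENSAMXG00000031084), the large proteoglycan versican, at 14.4, 9.46, 2.17 and 2.43 TPM, fbn2b, a fibrillin, at 11.6, 13.98, 4.11 and 4.51 TPM, and emilin2a, an elastic fibre glycoprotein, at 152, 118, 44.8 and 62.3 TPM. A second gene named vcana (ENSAMXG00000031311) was more abundant, at 271, 129, 152 and 151 TPM, and did not pass (limma adjusted p = 0.91 after scaling), and the 2 genes summed to 286, 139, 155 and 154 TPM. efemp2b, a fibulin, separated 10000 cells from the rest, at 69.2, 23.7, 17.7 and 15.8 TPM, and thbs1a, a thrombospondin, did likewise at 21.97, 8.93, 3.87 and 7.21 TPM; neither passed. Of 26 matrix proteases and inhibitors 0 rose and 2 fell (median -0.24): adam10a, a sheddase, at 73.2, 64.6, 23.2 and 30.7 TPM, and mmp14a, a membrane-bound collagenase, at 54.4, 58.4, 21.9 and 30.7 TPM. mmp9, a gelatinase, also stood out at 10000 cells, at 210.4, 76.7, 44.8 and 97.7 TPM, and did not pass.

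Of 41 TGF-beta and BMP genes 0 rose and 5 (12%) fell, near the 9.57% of all genes (median -0.12 after scaling). The falls included the receptors tgfbr1b at 7.02, 6.55, 1.07 and 2.91 TPM and bmpr2b at 11.2, 11.9, 2.81 and 4.3 TPM, and smad3b, which carries the signal to the nucleus, at 20.5, 17.4, 3.68 and 7.77 TPM, a log2 difference of -1.64 as deposited and -1.28 after scaling (SE 0.24, limma adjusted p = 0.023). id3, a target of BMP signalling, was at 12.05, 14.8, 20.01 and 18.2 TPM and passed as higher after scaling alone. Among 38 actin and contractile genes 1 rose and 6 fell, or 2.63% and 15.8% against 1.15% and 9.57% of all genes. tagln, a smooth muscle protein on actin, rose, at 279.9, 272, 336 and 359.8 TPM, and mrtfbb, a coactivator of contractile genes, fell, at 2.21, 2.11, 0.43 and 0.67 TPM. Of 22 Hippo and YAP genes 0 rose and 0 fell; ankrd1a and ccn1, both induced by YAP, were at 113, 143, 131 and 173 TPM and at 145, 141, 142 and 171 TPM and passed after scaling alone.

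Genes of the response to low oxygen were called about as often as all genes. Of 40 hypoxia genes 0 rose and 3 fell, and 5 were higher after scaling (median log2 difference -0.26 as deposited and 0.09 after scaling). That is 12.5% higher and 7.5% lower after scaling, against 9.4% and 9.57% of all genes. The falls included egln2, an oxygen-sensing prolyl hydroxylase, at 10.9, 9.38, 4.37 and 4.11 TPM, and kdm4b, an oxygen-using histone demethylase, at 11.9, 12.9, 4.52 and 6.46 TPM. vhl, which marks the hypoxia factor for destruction, was at 18.7, 19.9, 21.4 and 22.4 TPM, bhlhe41, a repressor that the hypoxia factor can induce, at 151, 171, 177 and 179.8 TPM, and mxi1, another such repressor, at 3.69, 3.69, 4.5 and 4.6 TPM; these 3 passed after scaling alone. In glycolysis, 1 rose (3.45%) and 3 fell (10.3%) of 29. The 2 copies of the Glut1 transporter went opposite ways: slc2a1a rose, as above, and slc2a1b fell, at 129, 99.02, 35.9 and 59.5 TPM, a log2 difference of -1.27 as deposited and -0.88 after scaling (SE 0.21, limma adjusted p = 0.0314). As deposited their sum was 195, 236, 199.7 and 287 TPM, and the sides overlapped. After scaling it was 164, 205, 237 and 305, with both large libraries above both small ones. hk1 and hk2, which trap glucose in the cell, fell, at 270.4, 222, 125 and 142 TPM and at 94.99, 91.3, 41.5 and 58.1 TPM. gpib, an isomerase of glucose phosphate, was at 3.51, 6.23, 6.59 and 11.7 TPM and passed after scaling alone.

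Among lipid genes, the share of falls was near that of all genes (9.57%) except in cholesterol synthesis. Of 31 cholesterol synthesis genes 0 rose and 0 fell, with 3 higher after scaling (median log2 difference -0.17 as deposited and 0.19 after scaling). hmgcs1, an early enzyme of the pathway, was at 78.9, 80.1, 90.7 and 82.4 TPM, flat as deposited, and passed as higher after scaling alone. msmo1, a sterol demethylase, was at 123, 94.3, 48.4 and 51.9 TPM and passed as lower as deposited alone (limma adjusted p = 0.0634 after scaling). Of 38 fatty acid synthesis and storage genes 0 rose and 4 fell (10.5% fell). acsl3b and acsl4b, which activate fatty acids, fell, acsl3b at 14.4, 14.5, 3.03 and 4.51 TPM, a log2 difference of -1.71 as deposited and -1.37 after scaling (SE 0.21, limma adjusted p = 0.022), and lpin2, an enzyme of triglyceride synthesis, was at 20.9, 21.6, 6.53 and 11.3 TPM. scd, which desaturates fatty acids, was higher at each larger density but did not pass, at 402, 579, 642 and 866 TPM (limma adjusted p = 0.0802 after scaling).

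Of 51 fatty acid oxidation and peroxisome genes 5 (9.8%) were higher after scaling, against 9.4% of all genes. The median log2 difference was -0.30 as deposited and 0.08 after scaling. On both scales 0 rose and 6 fell (11.8% fell). They included pparab and pparda, nuclear receptors for fatty acids, at 5.28, 7.22, 1.89 and 2.68 TPM and at 19.9, 19.9, 5.39 and 9.58 TPM, and pex16, of peroxisome assembly, at 10.3, 7.62, 3.03 and 4.02 TPM.

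Secreted hepatocyte proteins gave 1 rise (4.76%) and 0 falls of 21 tested, and 4 (19.0%) were higher after scaling (median log2 difference -0.01 as deposited and 0.31 after scaling). The rise was apoeb, apolipoprotein E, at 4783, 4105, 6126 and 6730.4 TPM, a log2 difference of 0.54 as deposited and 0.93 after scaling (SE 0.15, limma adjusted p = 0.022). apoc1, another apolipoprotein, was at 25.7, 21.4, 39.8 and 51.1 TPM and passed after scaling alone. The 3 genes named apoa4a, an apolipoprotein of triglyceride-rich particles, stood out in a single library. The most abundant was at 7.57, 7.83, 11.6 and 248 TPM, and the others at 1.79, 0.58, 1.6 and 12.5 TPM and at 0.27, 0.54, 0.73 and 6.87 TPM. All 3 were highest at 100000 cells, none passed (limma adjusted p from 0.0878 to 0.0988 after scaling), and reads may have been shared among them. Of 22 hepatocyte factors and enzymes 0 rose and 2 fell (9.09%, near the 9.57% of all genes): cps1, which starts the urea cycle, at 4.29, 4.55, 1.64 and 1.62 TPM, and hnf1bb, a factor of bile duct and liver, at 4.57, 6.12, 2.25 and 2.26 TPM. gck, glucokinase, was at 2.87, 9.03, 11.2 and 11.2 TPM and passed as higher after scaling alone.

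**Figure D4:**
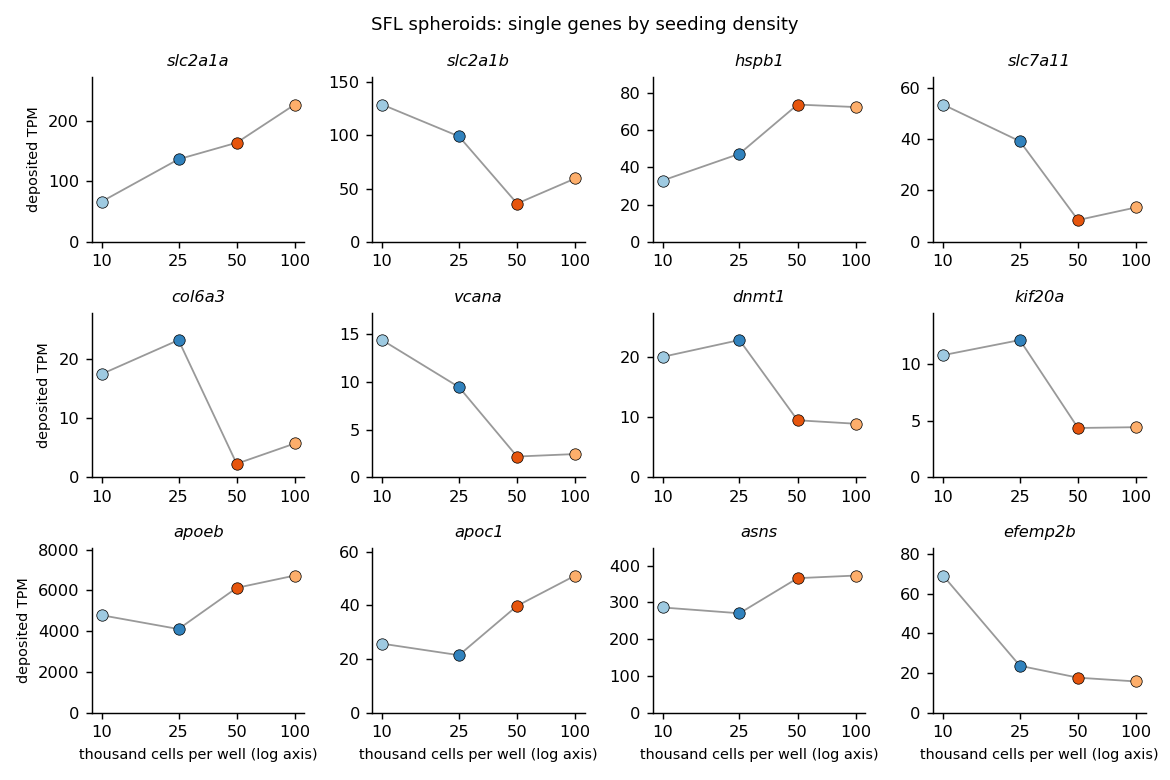
Deposited TPM (vertical axis from 0) against seeding density (horizontal, log axis, where 10 stands for 10000 cells per well) for 12 genes of the text, 1 library per point; vcana and asns are the genes with identifiers ENSAMXG00000031084 and ENSAMXG00000035392. slc2a1a climbs from 66.4 to 227 TPM while slc2a1b drops from 129 to 59.5; efemp2b is high at 10000 cells only.

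Of 51 genes of the unfolded protein and integrated stress responses 1 rose and 5 fell. These were 1.96% and 9.8%, near the 1.15% and 9.57% of all genes. The falls with the largest differences were amino acid transporters, slc7a11 and both genes of the large neutral amino acid carrier, slc7a5 at 8.98, 8.57, 2.42 and 2.09 TPM and SLC7A5 (ENSAMXG00000036189) at 2.29, 2.85, 0 and 0.17 TPM. The rise was 1 of 3 genes named asns, asparagine synthetase (ENSAMXG00000035392), at 286, 270.2, 366 and 373 TPM, a log2 difference of 0.41 as deposited and 0.80 after scaling (SE 0.11, limma adjusted p = 0.022). The other 2 were more abundant and were called lower as deposited alone, at 551, 535, 324 and 386 TPM and at 877, 831, 535 and 576 TPM, with scaled log2 differences of -0.22 and -0.23. Summed over the 3 genes, asns was at 1714, 1636, 1225 and 1334 TPM, lower in both large libraries as deposited, but 1439.6, 1426, 1454 and 1422 after scaling, where the sides overlapped. Reads may have been divided between the copies. canx, a chaperone of the endoplasmic reticulum, fell, at 176, 145, 68.2 and 92.7 TPM.

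Of 35 heat shock genes 1 rose and 2 fell, or 2.86% and 5.71% against 1.15% and 9.57% of all genes. hspb1 rose and HSF1 (hsf1), the heat shock factor, fell, at 36.7, 34.9, 14.3 and 20.7 TPM. hspb8, a partner of hspb1, was at 3.82, 4.89, 6.49 and 9.54 TPM and passed after scaling alone. The oxidative stress list held 3 rises (5.17%) and 4 falls (6.9%) among 58. In 33 of its genes both large libraries lay above both small ones after scaling, or 56.9% against 35.1% of all genes. The rises were fth1b and the glutathione peroxidases gpx1b at 290.1, 305, 405 and 384 TPM and gpx4b at 547, 622, 734 and 778 TPM. The falls included slc7a11 and gclm, the regulatory subunit of the first enzyme of glutathione synthesis, at 28.3, 21.3, 8.27 and 11.8 TPM. mt2, a metallothionein (ENSAMXG00000043108), was at 91.03, 163, 212 and 193 TPM and passed after scaling alone. Of 65 lysosome and autophagy genes 1 rose (1.54%) and 4 fell (6.15%). After scaling 11 (16.9%) were higher, against 9.4% of all genes (median log2 difference -0.21 as deposited and 0.16 after scaling). tfeb, a regulator of lysosome genes, fell, at 47.5, 45.95, 15.4 and 22.2 TPM. A cathepsin L gene, 1 of 6 tested genes named ctsl.1, rose, at 7.92, 6.56, 11.9 and 11.1 TPM. npc1, which exports cholesterol from lysosomes, fell, at 27.9, 25.8, 10.9 and 14.1 TPM.

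Of 31 interferon and nucleic acid sensing genes 0 rose and 1 fell, or 3.23% against 9.57% of all genes (median -0.51 as deposited and -0.20 after scaling). In 16 (51.6%) both large libraries lay below both small ones after scaling, against 29.9% of all genes. In SFL itself 9 of the 31 averaged under 1 TPM. The fall was trim25, a ubiquitin ligase of RNA sensing, at 5.56, 7.26, 1.22 and 3.1 TPM. stat1a, which carries the interferon signal, was at 26.4, 23.5, 8.36 and 15.97 TPM and passed as lower as deposited alone. Among 31 cytokine and NF-kB genes 1 rose and 1 fell, 3.23% each. ccl20b rose and rela, the NF-kB subunit p65, fell, at 10.9, 11.3, 4.18 and 3.82 TPM, a log2 difference of -1.28 as deposited and -0.93 after scaling (SE 0.15, limma adjusted p = 0.022). nfkbib and nfkbiaa, inhibitors of that factor, were at 50.8, 45.7, 51.1 and 59.4 TPM and at 30.04, 32.7, 36.2 and 33.9 TPM and passed as higher after scaling alone. Of 26 immediate early genes 0 rose and 0 fell; fosl1b, of the AP-1 factor, was at 25.9, 16.4, 12.5 and 5.62 TPM and did not pass. Of 37 clock genes 0 rose and 1 fell (2.7%), the fall being clocka at 7.94, 8.7, 2.66 and 4.02 TPM. nr1d1, a repressor in the clock, was at 13.9, 24.1, 27.02 and 28.7 TPM and passed as higher after scaling alone.

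Of the lists for other cell types, the endothelial one had 5 tested genes, of which 1 fell (20.0%, against 9.57% of all genes). This was kdrl, at 89.6, 84.9, 44.95 and 57.6 TPM. Another member, esama, was at 3.6, 3.8, 3.3 and 4.43 TPM, higher in both large libraries after scaling, and did not pass. The fibroblast and stellate list had 9, of which 1 fell (11.1%). This was wt1b, a mesothelial and stellate factor, at 42.4, 28.3, 11.6 and 17.3 TPM. lrata, at 6.41, 8.94, 9.81 and 9.17 TPM, was higher in both large libraries on both scales, and col1a2 after scaling only, but neither passed. After scaling both large libraries lay below both small ones in 4 of the 9 (44.4%) and above them in 2 (22.2%). The biliary list had 12, of which hnf1bb fell (8.33%). Its members sox9a, at 0.96, 1.03, 1.35 and 2.08 TPM, and anxa4, at 176, 198, 218 and 194 TPM, passed as higher after scaling alone. The scaled median of the biliary list was 0.31. In 50.0% of it both large libraries lay above both small ones after scaling, against 35.1% of all genes. The leukocyte list had 5 and the erythroid list 3 tested genes, with 0 passing on both scales. In a bulk library, fewer cells of a kind and less RNA per cell cannot be told apart.

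CFL spheroids, with the same split of densities, were compared by a test of the difference between the lines. The scaled difference of a gene in SFL correlated with that in CFL at r = 0.702 across the 13783 genes, which are not independent and whose libraries share densities. The test of the difference between the lines' changes called 0 genes on either scale (limma, smallest adjusted p 0.105 as deposited and 0.0871 after scaling), with 1132 and 1240 genes at an unadjusted p under 0.05. The percent called was 0.0 on both. A block for density, which pairs the lines' libraries, also called 0, and a pseudocount of 5 in place of 1 called 40.

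Some list medians differed between the lines; the difference was tested only gene by gene. The interferon list was at -0.20 in SFL and 0.36 in CFL after scaling, cholesterol synthesis at 0.19 and -0.12, and DNA replication at -0.29 and -0.03. The genes with the smallest p for this test included ptk6a, listed at 0 in every CFL library, and helz2, a helicase of the interferon response, at 7.28, 12.6, 7.43 and 5.73 TPM in SFL and 0.35, 1.0, 6.18 and 11.4 TPM in CFL. nme6, a nucleoside diphosphate kinase, was at 9.36, 7.91, 3.61 and 3.93 TPM in SFL, where it fell, and 6.06, 6.43, 6.31 and 8.42 TPM in CFL. ndrg3a was at 1.01, 0.9, 2.42 and 1.85 TPM in SFL and 52.5, 60.1, 18.1 and 11.5 TPM in CFL, and npnta, an integrin ligand of basement membranes, at 27.2, 33.4, 29.9 and 34.7 TPM and 39.1, 44.99, 15.3 and 13.7 TPM. The remaining genes were asns, kif1aa and sgsm1a, the last 2 at 0.06 TPM or less in SFL.

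**Figure D5:**
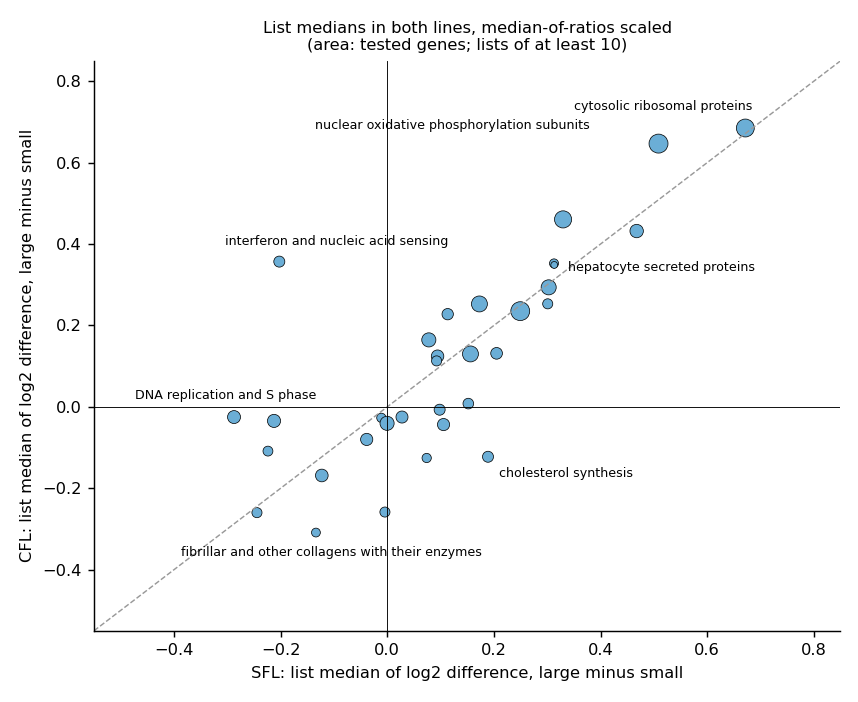
Median scaled log2 difference between large and small spheroids over each gene list with at least 10 tested genes, in SFL (horizontal) and CFL (vertical); point area gives the number of genes and the dashed line marks equal values. Ribosomal proteins lie near the line at 0.67 in SFL, and the interferon list lies off it, at -0.20 in SFL.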

How the data were processed

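Per the labels' protocols, total RNA went through a kit for stranded mRNA and was sequenced from 1 end. The submitters' processing notes name STAR 2.7.3a and RSEM 1.3.0; the genome build, annotation and strand setting are not given in the sources used here. The authors deposited TPM per gene and library, 27420 genes in all, and every value column belonged to a library. Depth cannot be read from TPM, so it is unknown and no counting error can be given; with 1 library per density, p-values measure the spread between libraries that also differ in density.

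Values were taken as log2(TPM + 1) for the 13783 genes with a mean of at least 1 TPM over the 8 libraries; fold changes on this scale understate those of low genes. limma 3.58.1 in R 4.3.3 fitted 4 groups (line by small or large seeding; lmFit, eBayes with a trend), with Benjamini-Hochberg adjustment over all tested genes and a threshold of 0.05. Median-of-ratios factors came from tested genes above 0 in all libraries. The fit was tested on simulated data for this comparison with 13783 genes. Of 200 genes changed by 0.5 on the log2 scale 0% were recovered, of those changed by 1 69%, and of those changed by 2 94%. False calls numbered 0, 8 and 9. The changed genes were drawn from those above a set mean level and were far fewer than the genes called in the data. The shares recovered therefore may not carry over to the calls above.

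Gene lists were matched by symbol, with a or b copies counted. Named genes were the 12 largest scaled rises and 12 largest falls called on both scales without overlap and with at least 5 TPM in the higher side, the 3 members of each list with the largest absolute scaled difference, the 5 most abundant genes and, for the line comparison, the 5 with the smallest p on each scale. Further list members were named after their values were seen. The members and lists were chosen with earlier results of these data known. The alternatives tried were other scalings, pseudocounts, filters, sample sets and a density block.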

Additional observations from a re-analysis of the deposited data

How the results depend on the processing

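As deposited, 159 genes were higher and 3557 lower; median-of-ratios scaling gave 1295 and 1319, quantile normalization 844 and 1041, no expression filter 104 and 1839, and no variance trend 95 higher. The 4 SFL libraries alone gave 0 and 0 on both scales (5234 genes at an unadjusted p under 0.05 as deposited and 4416 after scaling, limma). Leaving out 1 library gave 0 to 203 higher and 0 to 4174 lower as deposited. After scaling, an alternative added after seeing the data, it gave 0 and 1 without SFL at 10000 cells, 0 and 0 without 25000, 7 and 6 without 50000, and 846 and 1094 without 100000; the lone library of a side is assumed to vary like the other groups. The test of the lines' difference gave 0 genes, 40 with a pseudocount of 5 and 0 to 5 without 1 library (after scaling, where only SFL libraries were left out, 0 to 3). For that test the density as replicate block, which pairs libraries by the density in their titles, gave 0 genes on both scales; no paired analysis was possible for large against small, because the libraries of the 2 sides share no density. Of the genes named by size, 12 of 12 falls and 8 of 12 rises passed with a pseudocount of 0.1, and 0 of either with the SFL libraries alone. Counting only genes that average at least 1 TPM in SFL itself was also chosen after seeing the data. Unknown depth limits every low value.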

Other observations

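Families recognised by name were counted after their values had been seen, so these counts support nothing by themselves. Of all tested genes 1.15% rose and 9.57% fell on both scales. Of 228 tested solute carrier genes, the membrane transporters of amino acids, sugars, ions and vitamins, 3 rose and 49 fell on both scales, with a median scaled log2 difference of -0.11. Of 68 rab GTPases, which direct vesicle traffic, 0 rose and 13 fell (median -0.24). Of 29 kinesins, the motors of microtubules, 0 rose and 7 fell (median -0.30). Of 20 subunits of the vacuolar proton pump 2 fell (median 0.16), and of 30 mediator subunits, which link transcription factors to polymerase, 1 fell (median 0.27). Of the 8 subunits of the CCT chaperonin, which folds actin and tubulin, 7 had both large libraries above both small ones after scaling (35.1% of all genes did), and 0 passed on both scales.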
